A study of Mus musculus with 2 samples.

Results

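Replication-dependent histone genes encode the H1, H2A, H2B, H3 and H4 proteins that package newly made DNA, and in mice most of them lie in a cluster on chromosome 13 and a smaller one on chromosome 3. The genes described here were those on chromosomes 13, 3 and 11 of the mouse assembly mm10 whose symbol begins with H1f (numbers 1 to 6), H2ac, H2bc, H3c or H4c followed by a number. The rule found 64 genes of the 49550 in the gene table, 63 of them protein-coding and 1 (H2ac14) a pseudogene. Chromosome 13 held 54, chromosome 3 held 10 and chromosome 11 held 0. On chromosome 11 the histone genes H2bu2, H2bu1-ps and H2aw carry other names, so their 2 bins served only as a comparison. The 64 genes overlapped 13 bins of 50 kb (11 on chromosome 13 and 2 on chromosome 3) of the 52685 bins on chromosomes 1 to 19 and X. A value belongs to a bin and not to a gene, since 1 bin held up to 10 of these genes.

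The measurement was Foxa2 HiChIP, in which ligated chromatin contacts are enriched for fragments bound by the liver pioneer factor Foxa2. There was 1 library of wildtype mouse liver taken 4 h after a single oral dose of GW4064, an agonist of the bile acid receptor FXR, and 1 library of wildtype liver taken 4 h after the vehicle, a propylene glycol and Tween 80 solution. The sources used here give neither the age of the mice nor how many stand behind a library. With 1 library per group no difference has a replicate check: each GW4064 over vehicle value compares 2 libraries, and the 95% intervals printed here include no error but that of counting. The GW4064 library held 29003442 contacts and the vehicle library 22686004, with 18.3% and 22.3% of them between chromosomes. The median bin had 981 contacts in the GW4064 library and 786 in the vehicle library. Bins of 10 hepatocyte genes lay at a median coverage percentile of 24.9 (GW4064) and 30.7 (vehicle), and bins of 10 neuron genes at 63.9 and 58.6, so coverage does not serve as a check of the tissue label.

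In dividing cells these genes are transcribed in S phase at the histone locus body, a nuclear structure that forms on the clusters and is organised by NPAT. Their mRNAs end in a stem-loop bound by SLBP in place of a poly(A) tail. Most hepatocytes of an adult liver are not dividing. Runs of member genes were split into parts wherever no member lay for over 100 kb. Part 1 (chr13:21715711-21833475) held 18 genes in 3 bins, among them the linker histone gene H1f5. Part 2 (chr13:22035122-22043658) held 5 genes in 1 bin, shared with the peptidase gene Prss16. Part 3 (chr13:23531044-23764412) held 29 genes in 6 bins, among them the other 5 H1 genes, and shares bins with the iron regulator Hfe and with Trim38. Part 4 (chr13:23933725-23934913) held only the testis histone genes H2bc1 and H2ac1, in a bin shared with the transporter gene Slc17a4. The chromosome 3 cluster (chr3:96219885-96270192) held 10 genes in 2 bins. The gaps between the chromosome 13 parts measured 202, 1487 and 169 kb. The wide one is filled by vomeronasal receptor genes: its 23 bins without tRNA genes held 70 Vmn1r genes and pseudogenes.

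The upstream bases of 8 histone genes are given because they carry letters found more often in some histone classes than in all promoters and, for H4c17 and H4c18, the sequence identity that limits the mapping of reads. The 5 H2B promoters, 1 from each cluster part, have the octamer ATTTGCAT in capitals, and the 3 H4 promoters have GGTCCG in capitals. Each run is the 250 bases before the annotated start, 5′ to 3′ on the gene's own strand, from RefSeq on GRCm38.p6. H2bc14 of part 1 was taken from chr13:21721794-21722043 (plus strand), H2bc12 of part 2 from chr13:22035571-22035820 (plus strand) and H2bc8 of part 3 from chr13:23571150-23571399 (plus strand). H2bc18 of the chromosome 3 cluster was taken from chr3:96269450-96269699 (plus strand), and H2bc1 of part 4 from chr13:23934157-23934406 (minus strand). The H4 promoters were those of H4c17 at chr13:21811496-21811745 (plus strand), H4c18 at chr13:21832198-21832447 (minus strand) and H4c9 at chr13:22041363-22041612 (minus strand).
H2bc14: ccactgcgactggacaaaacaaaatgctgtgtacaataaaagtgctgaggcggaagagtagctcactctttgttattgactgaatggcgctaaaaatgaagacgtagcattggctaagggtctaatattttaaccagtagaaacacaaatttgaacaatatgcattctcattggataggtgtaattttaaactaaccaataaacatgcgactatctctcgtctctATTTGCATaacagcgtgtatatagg
H2bc12: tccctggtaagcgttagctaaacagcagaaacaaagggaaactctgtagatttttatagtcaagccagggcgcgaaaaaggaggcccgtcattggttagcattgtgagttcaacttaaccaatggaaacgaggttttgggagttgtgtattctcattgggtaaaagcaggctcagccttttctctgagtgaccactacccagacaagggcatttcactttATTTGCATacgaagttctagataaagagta
H2bc8: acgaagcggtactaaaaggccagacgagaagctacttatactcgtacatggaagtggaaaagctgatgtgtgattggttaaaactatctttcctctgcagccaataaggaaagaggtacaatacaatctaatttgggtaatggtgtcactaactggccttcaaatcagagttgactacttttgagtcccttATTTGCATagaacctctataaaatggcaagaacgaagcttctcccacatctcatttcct
H2bc18: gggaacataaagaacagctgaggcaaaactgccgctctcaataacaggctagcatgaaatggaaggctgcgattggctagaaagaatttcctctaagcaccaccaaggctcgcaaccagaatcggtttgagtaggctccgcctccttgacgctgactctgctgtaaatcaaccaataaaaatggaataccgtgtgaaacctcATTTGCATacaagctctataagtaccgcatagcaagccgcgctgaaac
H2bc1: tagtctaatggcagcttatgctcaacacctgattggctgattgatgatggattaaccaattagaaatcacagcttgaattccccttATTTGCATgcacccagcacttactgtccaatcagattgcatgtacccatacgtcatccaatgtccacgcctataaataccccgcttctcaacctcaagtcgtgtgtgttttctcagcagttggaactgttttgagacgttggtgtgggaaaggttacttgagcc
H4c17: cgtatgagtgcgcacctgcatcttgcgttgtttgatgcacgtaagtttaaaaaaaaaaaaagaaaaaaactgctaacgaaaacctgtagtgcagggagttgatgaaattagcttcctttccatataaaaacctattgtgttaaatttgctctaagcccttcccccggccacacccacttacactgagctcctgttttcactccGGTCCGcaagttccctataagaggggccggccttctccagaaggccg
H4c18: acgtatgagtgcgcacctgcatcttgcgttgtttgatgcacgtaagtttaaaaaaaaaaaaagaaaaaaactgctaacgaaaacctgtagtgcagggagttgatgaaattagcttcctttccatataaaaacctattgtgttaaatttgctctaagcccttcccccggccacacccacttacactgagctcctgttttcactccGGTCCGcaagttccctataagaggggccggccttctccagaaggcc
H4c9: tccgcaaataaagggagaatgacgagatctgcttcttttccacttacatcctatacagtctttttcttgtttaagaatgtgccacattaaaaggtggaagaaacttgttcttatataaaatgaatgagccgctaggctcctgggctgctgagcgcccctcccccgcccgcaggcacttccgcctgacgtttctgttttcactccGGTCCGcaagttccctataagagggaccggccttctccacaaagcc
In these letters the octamer of H2bc14, H2bc12, H2bc8 and H2bc18 stands toward the 3′ end of the window, and that of the testis gene H2bc1 stands farther from the start. H4c17 and H4c18 of part 1 share an unbroken run of 249 bases, and H4c17 and H4c9 of part 2 share 38.

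Promoters were matched for 58 of the 64 members. The octamer, on either strand, occurred in 7 of 14 H2B and 6 of 17 H2A promoters, in 0 of 6 H1, 0 of 10 H3 and 0 of 11 H4 promoters, and in 1.59% of all 27025 promoters. Since H2A and H2B genes often lie back to back, the 13 promoters held 10 distinct octamers, and none overlapped a match of the CCAAT or H4 letters. The octamer was found in all 5 parts. GGTCCG, on either strand, occurred in 8 of 11 H4 promoters, in 2 of the 47 others and in 6.73% of all promoters. CCAAT was found in 48 of 58 member promoters and in 34.2% of all promoters, but in only 3 of 11 H4 promoters. The forkhead letters TGTTTAC and TGTTTGC each occurred in 0 of 58 member promoters, against 3.12% and 4.32% of all promoters, and the inverted repeat of AGGTCA spaced by 1 base, an FXR motif, in 0 of 58, against 0.0074%. These matches describe letters in a window of 250 bases and do not show binding.

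Parts 1 and 2 of the chromosome 13 cluster contacted part 3 far more often than other bin pairs at the same distance. Expected counts were the mean over all bin pairs of the genome at the same distance whose bins had like total coverage, without pairs of histone bins. Parts 1 and 3, separated by 1700 to 2050 kb, shared 168 contacts against 10.3 expected in the GW4064 library, which is 16.2-fold (13.9 to 18.9), and 113 against 8.68 in the vehicle library, which is 13.01-fold (10.7 to 15.6). Parts 2 and 3, separated by 1500 to 1750 kb, shared 79 contacts against 6.39 expected in the GW4064 library (12.4-fold, 9.78 to 15.4) and 67 against 5.25 in the vehicle library (12.8-fold, 9.89 to 16.2). Both pairs of parts stood above expectation in both libraries, and the intervals of the libraries overlapped. With each bin pair capped at the 99th percentile of its distance, parts 1 and 3 were at 7.37-fold in the GW4064 library and 6.61-fold in the vehicle library, and parts 2 and 3 at 4.75-fold and 4.64-fold. Parts 1 and 2, at 200 to 300 kb, shared 42 contacts in the GW4064 library (2.52-fold, 1.81 to 3.40) and 24 in the vehicle library (2.01-fold, 1.29 to 2.99). Of the 27 bin pairs between parts 1, 2 and 3, 22 in the GW4064 library and 20 in the vehicle library reached 2-fold with at least 5 contacts. Over all bin pairs at such distances, 2.79% did so in the GW4064 library and 2.44% in the vehicle library.

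**Figure D1:**
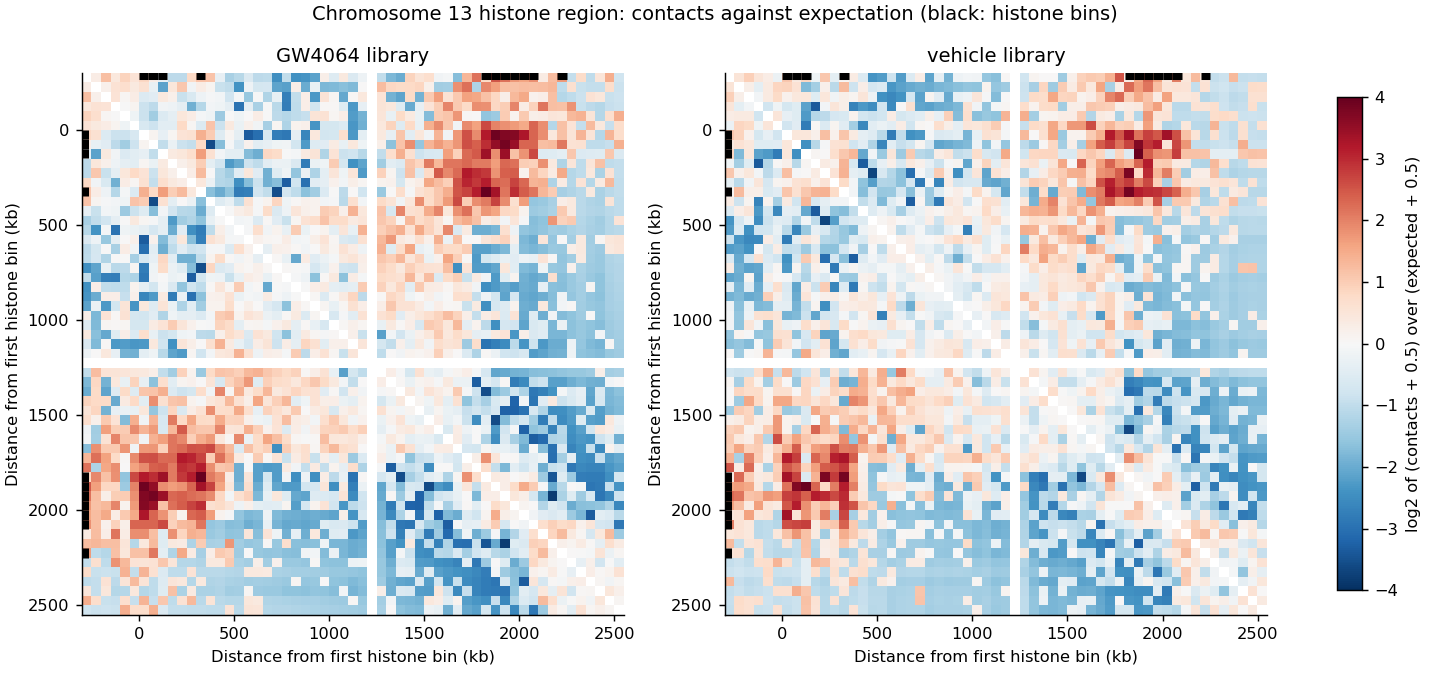
Contacts of bin pairs along the chromosome 13 histone region in the GW4064 library (left) and the vehicle library (right), as log2 of contacts plus 0.5 over expected plus 0.5; both axes give the distance from the first histone bin in kb, black bars mark histone bins, and white stripes mark a bin with too few contacts and the diagonal. A red block joins parts 1 and 2 with part 3, at 14.8-fold in the GW4064 library and 12.9-fold in the vehicle library.

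The excess was spread over the bins of part 3. The bin pair with the most contacts was that of part 2 (Prss16, H2bc12, H2ac12, H4c9) with the bin at chr13:23500001-23550000 (H4c8, H2ac10, H3c8), which had 32 contacts in the GW4064 library and 21 in the vehicle library, 24.8-fold and 20.5-fold over expected. The bin at chr13:21750001-21800000, which holds H1f5, had 13 contacts in the GW4064 library and 14 in the vehicle library with the 10-gene bin at chr13:23550001-23600000, which holds H1f3. These were 18.9-fold and 22.6-fold over expected. Over the 24 bin pairs between parts 1 and 2 and part 3, counts ran from 1 to 32 with a median of 8.5 in the GW4064 library, and from 0 to 21 with a median of 7 in the vehicle library. With fewer than 2 contacts expected at each pair, few single counts are large enough to be read alone. The bin at chr13:21800001-21850000, home of H4c17 and H4c18, had low coverage, with 308 contacts in the GW4064 library and 270 in the vehicle library. Without it the contacts between all parts were 4.08-fold over expected in the GW4064 library and 3.64-fold in the vehicle library, against 4.30-fold and 3.89-fold with it. With the same cap on each bin pair those values were 2.49-fold and 2.25-fold.

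Part 4, which holds H2bc1 and H2ac1, had less of this excess. Its contacts with parts 1 and 2 numbered 6 against 2.07 expected in the GW4064 library (2.90-fold, 1.06 to 6.31) and 1 against 1.99 in the vehicle library (0.503-fold, 0.0127 to 2.80). Its contacts with part 3, only 150 to 400 kb away, numbered 36 in the GW4064 library (0.867-fold, 0.607 to 1.20) and 27 in the vehicle library (0.849-fold, 0.560 to 1.24). Parts 1 and 2 exceeded expectation with part 3 by 5.09 times as much as with part 4 in the GW4064 library (lower bound 2.30). In the vehicle library the same ratio was 25.7 (lower bound 4.55), on 1 contact with part 4. Of its 10 bin pairs with parts 1 to 3, 0 in either library reached 2-fold with at least 5 contacts, a count near the 2.79% and 2.44% of all bin pairs from which nothing is read. The 2 bins between parts 3 and 4, which hold Slc17a2, Slc17a3 and Slc17a1 among other genes, had 14 contacts with parts 1 and 2 in the GW4064 library (3.12-fold, 1.71 to 5.24) and 13 in the vehicle library (3.29-fold, 1.75 to 5.63). The 5 bins after part 4 were at 1.18-fold (0.591 to 2.12) and 1.10-fold (0.503 to 2.09). The excess of part 3 over the 2 bins between parts 3 and 4 was 4.72 in the GW4064 library (2.76 to 8.76) and 3.92 in the vehicle library (2.24 to 7.51). Without part 4 the contacts between all parts stood at 8.65-fold in the GW4064 library and 7.88-fold in the vehicle library.

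**Figure D2:**
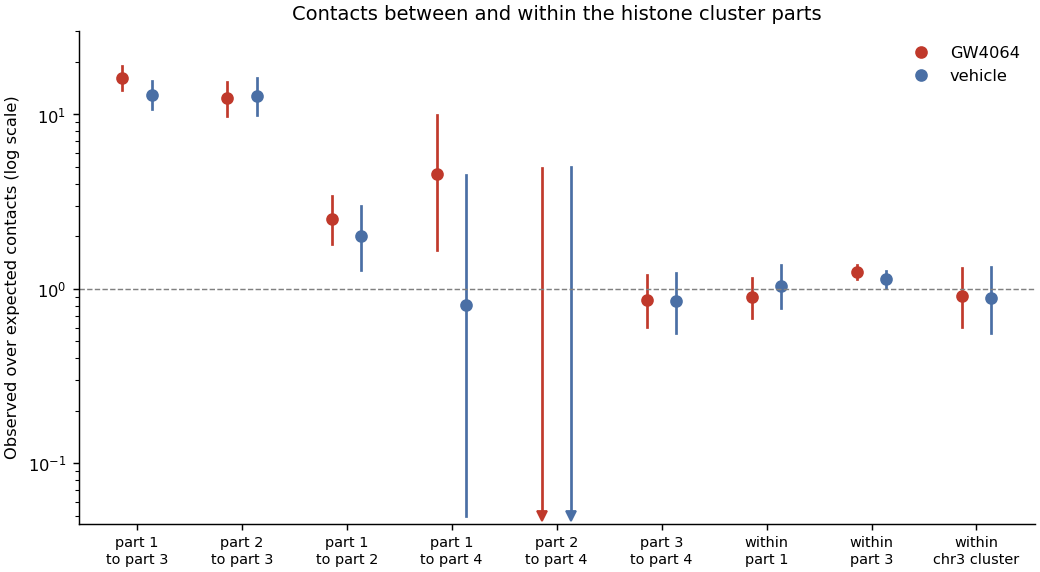
Observed over expected contacts for each pair of parts and within parts, on a log scale, in the GW4064 library (red) and the vehicle library (blue); bars are exact Poisson 95% intervals, arrows mark 0 contacts and the dashed line marks 1. Parts 1 and 2 with part 3 lie between 12.4 and 16.2, and the pairs within a part lie near 1.

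The histone bins contacted each other and not the Vmn1r bins that lie between parts 2 and 3 at a raised rate. At separations of at least 150 kb, the histone bins of parts 1 to 3 had 381 contacts among themselves against 95.5 expected in the GW4064 library (3.99-fold) and 265 against 69.7 in the vehicle library (3.80-fold). With the Vmn1r bins without tRNA genes, the same histone bins had 275 contacts against 503 expected in the GW4064 library (0.547-fold, 0.484 to 0.616) and 208 against 357 in the vehicle library (0.583-fold, 0.507 to 0.668). The ratio of histone bins to Vmn1r bins was 7.29 in the GW4064 library (6.23 to 8.55) and 6.52 in the vehicle library (5.42 to 7.86). The first eigenvector of the contact map at 250 kb, positive in gene-rich chromatin, ran from -1.48 to -0.80 over these bins in the GW4064 library and from -1.45 to -0.82 in the vehicle library. Its median was 0.40 in part 3 in the GW4064 library and 0.53 in the vehicle library. In part 1 it was 0.03 and -0.28, and in part 2 it was -0.80 and -0.95. Part 2 is 1 bin of 50 kb, and the other bins of its 250 kb window hold Vmn1r genes. Its value is that of the whole window and does not describe part 2 alone. With the expectation taken from bins of positive eigenvector alone, over a wider range of coverage, the contacts between all parts were 4.04-fold over expected in the GW4064 library and 3.85-fold in the vehicle library. With it taken from the 1192 gene-dense bins alone, over that same range, they were 3.82-fold and 3.68-fold. Gene-dense bins have at least 40 protein-coding genes in the 21 bins around them, the lowest value of a histone bin. Over the same wider range, the expectation from all bins gave 4.00-fold in the GW4064 library and 3.89-fold in the vehicle library. For parts 1 and 3 the gene-dense bins gave 11.4-fold in the GW4064 library and 10.6-fold in the vehicle library. All bins over that range gave 14.5-fold and 12.2-fold. For parts 2 and 3 the gene-dense bins gave 8.29-fold and 10.98-fold, and all bins 11.9-fold and 13.9-fold. The gene-dense bins include bins beside the parts, since only pairs of histone bins were left out.

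Several bins with tRNA genes next to the histone parts took part in the same block at a lower level, but tRNA genes did not mark it in every bin. The 3 bins between parts 1 and 2 held 24 tRNA genes and had 107 contacts with part 3 against 17.1 expected in the GW4064 library (6.25-fold, 5.12 to 7.55) and 91 against 14.4 in the vehicle library (6.32-fold, 5.09 to 7.77). The 5 bins with tRNA genes before part 3 (32 tRNA genes) had 103 contacts with parts 1 and 2 in the GW4064 library (5.67-fold, 4.63 to 6.88) and 89 in the vehicle library (6.02-fold, 4.84 to 7.41). These 2 sets of tRNA bins, which hold no histone gene by the rule, contacted each other at 6.66-fold (5.55 to 7.92) in the GW4064 library and 5.46-fold (4.35 to 6.76) in the vehicle library. The intervals of the tRNA bins lay below those of parts 1 and 2 with part 3 in both libraries. A bin 550 kb before part 1, at chr13:21150001-21200000, holds Trim27 and 9 tRNA genes and was picked with its values known. It had 35 contacts with part 3 in the GW4064 library (8.15-fold, 5.68 to 11.3) and 23 in the vehicle library (6.59-fold, 4.18 to 9.89). The 5 bins directly before part 1, with 1 tRNA gene in all, were at 3.39-fold with part 3 in the GW4064 library and 2.65-fold in the vehicle library. Single bins varied in their contacts with all of parts 1 to 3. The bin 1550 kb after the first histone bin (5 tRNA genes) was at 0.759-fold in the GW4064 library and 0.450-fold in the vehicle library. The bin at 1600 kb (4 tRNA genes) was at 0.537-fold and 0.934-fold. The bin 300 kb before the first histone bin, without tRNA genes, was at 2.45-fold and 2.34-fold. The bins of parts 1 and 2 together hold 9 tRNA genes and the first bin of part 3 holds 13. Of the 24 bin pairs between parts 1 and 2 and part 3, 5 hold no tRNA gene in either bin, all of them pairs of the H1f5 bin. These 5 had 51 contacts against 3.19 expected in the GW4064 library (15.98-fold, 11.9 to 21.01). In the vehicle library they had 37 against 2.81 (13.2-fold, 9.26 to 18.1). All 5 rest on the H1f5 bin, whose neighbouring bins hold tRNA genes, and a role of tRNA genes was not tested.

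**Figure D3:**
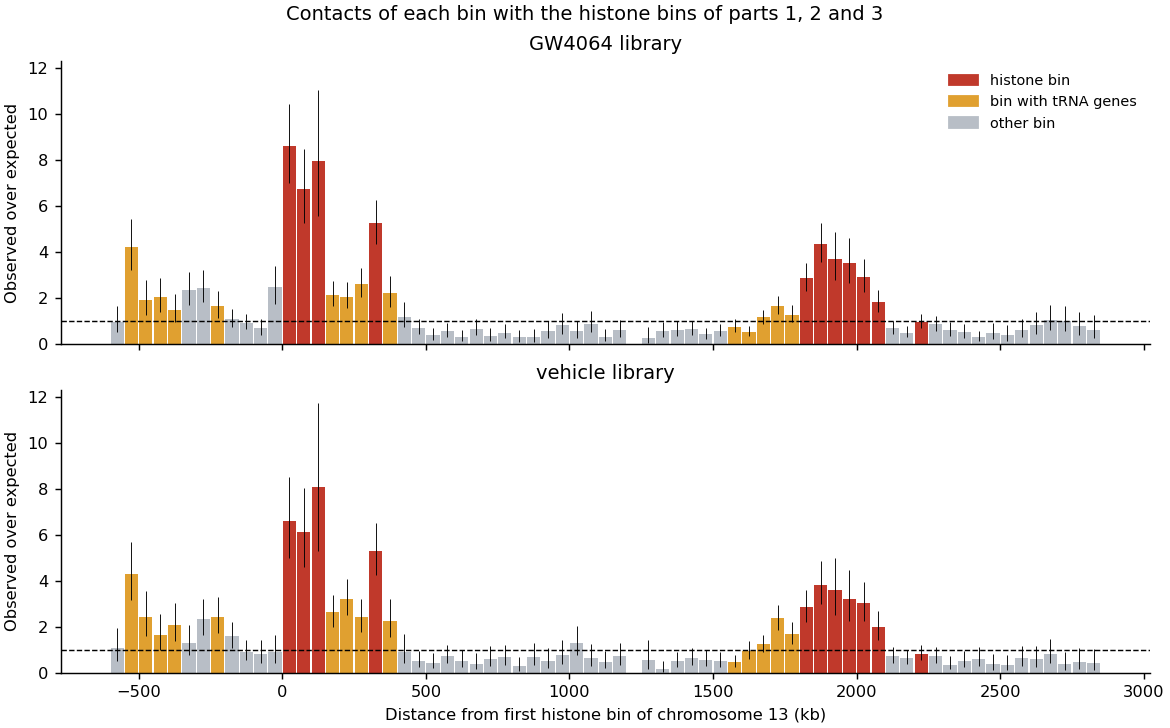
Observed over expected contacts of each 50 kb bin with the histone bins of parts 1 to 3 at least 150 kb away, by distance from the first histone bin, for the GW4064 library (top) and the vehicle library (bottom); red bars are histone bins, yellow bars bins with tRNA genes, grey bars other bins, and lines are exact Poisson 95% intervals. Histone bins of parts 1 and 2 reach 5.24 to 8.61 in the GW4064 library and 5.29 to 8.06 in the vehicle library, the bin of part 4 is at 0.963 and 0.829, and most bins between are under 1.

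Within a part, contacts were near expectation. Pairs of different bins of 1 part had 525 contacts against 447 expected in the GW4064 library (1.17-fold, 1.08 to 1.28) and 371 against 336 in the vehicle library (1.10-fold, 0.994 to 1.22). The 15 bin pairs of part 3 were at 1.25-fold (1.13 to 1.37) in the GW4064 library and 1.14-fold (1.01 to 1.27) in the vehicle library. The pair of bins with the H1f3 and the Hfe, H1f2 and H3c3 genes, 150 kb apart, had 33 contacts in the GW4064 library and 17 in the vehicle library, 2.85-fold and 1.99-fold over expected. The 2 bins of the chromosome 3 cluster shared 28 contacts in the GW4064 library (0.906-fold) and 23 in the vehicle library (0.886-fold). The largest of these part-level values were 1.25-fold in the GW4064 library and 1.14-fold in the vehicle library. The lowest values between parts 1, 2 and 3, those of parts 1 and 2, were 2.52-fold (1.81 to 3.40) and 2.01-fold (1.29 to 2.99). The distances differ, at 50 to 250 kb within parts and 200 to 300 kb between parts 1 and 2.

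The chromosome 13 and chromosome 3 clusters also contacted each other. Their 22 bin pairs held 11 contacts against 0.113 expected in the GW4064 library (97.7-fold, 48.8 to 175) and 9 against 0.112 in the vehicle library (80.2-fold, 36.7 to 152), where the expectation comes from all bin pairs of the 2 chromosomes with like coverage in trans. In each library 7 of the 22 pairs had at least 1 contact, against 0.463% of all chromosome 13 to chromosome 3 bin pairs in the GW4064 library and 0.418% in the vehicle library. At least 2 contacts fell on 3 pairs in the GW4064 library and on 2 in the vehicle library, against 0.0016% and 0.00153% of all such pairs. The counts are small, and both libraries together gave 20 contacts and 89.0-fold (54.3 to 137). With the expectation taken from the gene-dense bins alone, over a wider range of coverage, the values were lower, at 23.04-fold in the GW4064 library and 22.6-fold in the vehicle library. Over that wider range, all bins of the 2 chromosomes gave 104-fold and 88.9-fold. The gene-dense expectation left out only pairs of histone bins, so it kept gene-dense bins beside the chromosome 13 parts. Bins beside the clusters had an excess of their own. How much of the drop comes from gene density was not tested. The bin at chr3:96250001-96300000 (H4c14, H3c13, H2bc18 and the Fc receptor gene Fcgr1) had 7 contacts with the 11 chromosome 13 histone bins in the GW4064 library and 8 in the vehicle library. No other of the 48381 bins on other chromosomes had as many in either library. That rank is by raw count, and this bin was among the most covered in trans, at percentiles 96.35 (GW4064) and 98.5 (vehicle). Against bins of like trans coverage it was at 105-fold in the GW4064 library (42.02 to 215) and 118-fold in the vehicle library (51.0 to 233). The neighbouring histone bin at chr3:96200001-96250000 (7 genes, among them H3c14 and H3c15) had 4 contacts in the GW4064 library and 1 in the vehicle library.

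Seen from chromosome 3, the bin of H1f3, H4c6 and 8 other member genes at chr13:23550001-23600000 came first, with 3 contacts in each library. It was the only one of 47596 bins on other chromosomes with 3 or more in either library. The bin of Hfe, H1f2, H3c3 and H2bc3 at chr13:23700001-23750000 had 2 contacts in each library. Part 3 made up 7 of the 11 contacts in the GW4064 library and 7 of the 9 in the vehicle library. Part 1 had 2 in each library, and parts 2 and 4 had 1 each in the GW4064 library and 0 in the vehicle library. The other bins of the region on chromosome 13 (between and beside the parts) had 3 contacts with the chromosome 3 cluster in the GW4064 library and 1 in the vehicle library. Per expected contact the histone bins had 15.7 times as many in the GW4064 library (lower bound 4.15) and 36.9 times as many in the vehicle library (lower bound 5.11). The Vmn1r bins had 0 contacts with the chromosome 3 cluster in both libraries, against 0.258 and 0.234 expected. Their upper bounds, 14.3-fold in the GW4064 library and 15.8-fold in the vehicle library, lie below the lower bounds of the histone bins, 48.8-fold and 36.7-fold.

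**Figure D4:**
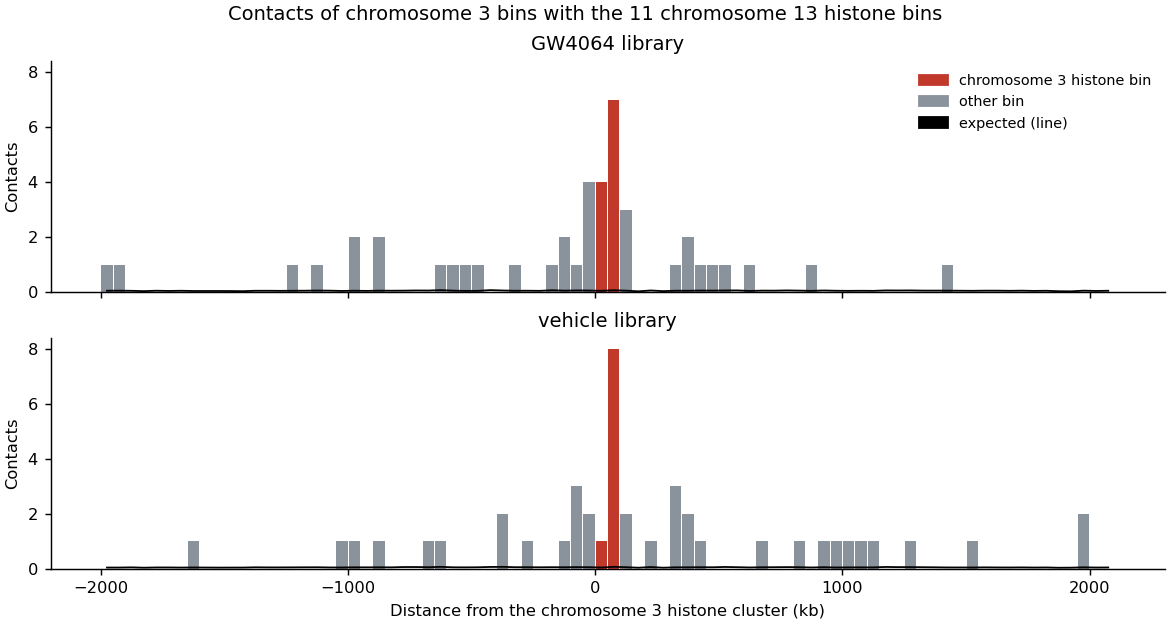
Contacts of each 50 kb bin of chromosome 3 within 2000 kb of its histone cluster with the 11 chromosome 13 histone bins, for the GW4064 library (top) and the vehicle library (bottom); red bars are the 2 histone bins and the black line is the expected count. The highest bar in both libraries is a histone bin, with 7 contacts in the GW4064 library and 8 in the vehicle library, and lower counts extend to both sides.

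The trans contacts were not limited to the bins with histone genes. The 10 bins beside the chromosome 3 cluster, 5 on each side, held 12 contacts with the chromosome 13 histone bins in each library, 24.1-fold over expected in the GW4064 library (12.5 to 42.1) and 23.4-fold in the vehicle library (12.1 to 40.8). Those bins hold genes such as Otud7b, Sv2a and Bola1 and no member. The excess of the cluster over these neighbours was 4.05 in the GW4064 library (1.62 to 10.02) and 3.43 in the vehicle library (1.28 to 8.88). For histone genes on other chromosomes the depth was too low to tell. The chromosome 11 bins of H2bu2 and H2aw had 0 contacts with the chromosome 13 histone bins in both libraries against 0.0784 and 0.0763 expected. Their upper bounds were 47.1-fold in the GW4064 library and 48.3-fold in the vehicle library. The bin of the solitary H4 gene H4f16 on chromosome 6 had 0 in both libraries, with upper bounds of 86.7-fold and 85.6-fold. All these bounds lie above the values of the 10 bins beside the chromosome 3 cluster, so an excess of that size could have been missed. The bin just before that of H4f16 had 0 contacts in the GW4064 library and 3 in the vehicle library.

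Members share sequence, which can place a read in the wrong copy. Among 93 pairs of promoters of 1 class in 1 part, 4 shared a run of at least 100 bases, with H4c17 and H4c18 at 249. Among 163 pairs in different parts of chromosome 13 the longest shared run was 40 bases (H2ac23 and H2ac7), and among 86 pairs between chromosomes 13 and 3 it was 12 (H2ac22 and H2ac20). Coding sequences were not compared, and tRNA genes also occur in near-identical copies. The part of shared sequence in the contacts between clusters was not tested. The 10 bins beside the chromosome 3 cluster, which hold no member, were at 24.1-fold in the GW4064 library and 23.4-fold in the vehicle library. A read placed in the wrong copy can have its partner in such a bin, so these values are no test of it.

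The GW4064 over vehicle ratios of these contacts were close to 1 in cis and imprecise in trans. Scaled to the contacts of the same distance, contacts between the chromosome 13 parts were 1.00 times as frequent in the GW4064 library as in the vehicle library (0.847 to 1.19), and contacts within parts 1.01 times (0.881 to 1.15). Parts 1 and 2 to part 3 gave 1.04 (0.855 to 1.27). In trans the ratio was 1.16 (0.438 to 3.18), an interval that does not exclude a change of 2-fold either way. These intervals limit a difference between the libraries and do not show that the treatment has no effect.

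Local coverage, counted over contacts of each bin that reach no farther than 1 Mb and leave the bin, was slightly lower at the histone bins in the GW4064 library. The 13 bins held 2504 such contacts in the GW4064 library and 2002 in the vehicle library, a log2 ratio of -0.19 (-0.27 to -0.10) after scaling to all local contacts. Single bins ran from -0.38 to 0.09, with a median of -0.14 against 0.02 over all bins. Of the 12 bins with enough contacts, 0 were at least 1.5-fold lower or higher with an interval excluding 1, against 3.19% of all bins lower and 0.226% higher. The bin of part 2 had 289 local contacts in the GW4064 library and 265 in the vehicle library (-0.38, -0.63 to -0.14). The chromosome 3 bin of H2ac18 to H2ac21 had 182 in the GW4064 library and 166 in the vehicle library (-0.38, -0.69 to -0.06). In the 10-gene bin of H1f3 the counts were 275 and 193 (0.00, -0.27 to 0.28). The direction depends on the comparison: relative to bins of like gene density the histone bins stood at 0.16, because the median of such bins, averaged over the histone bins, was -0.35. A change in the number of contacts and a change in Foxa2 immunoprecipitation cannot be told apart here.

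**Figure D5:**
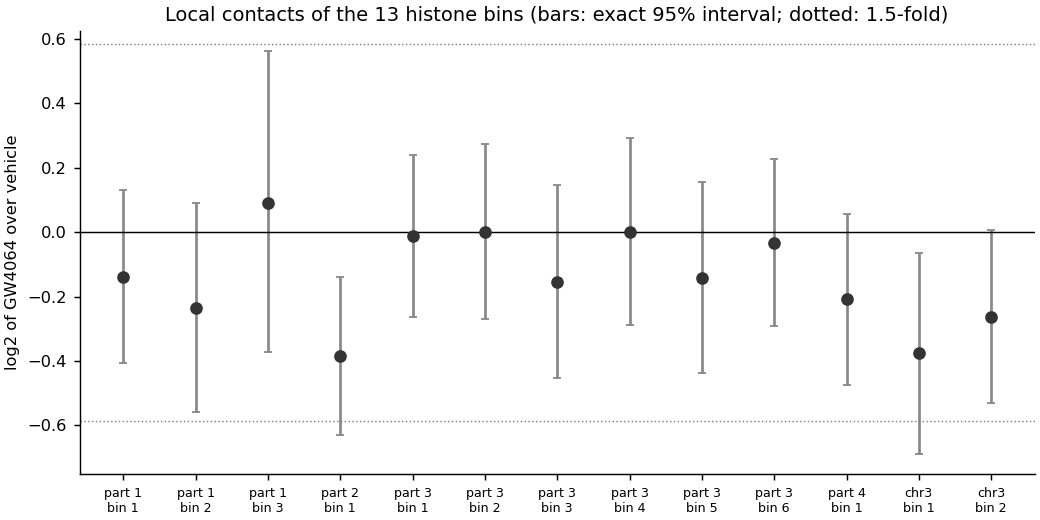
Log2 ratio of local contacts, GW4064 over vehicle, for the 13 histone bins in order along chromosome 13 and then chromosome 3; bars are exact 95% intervals and dotted lines mark 1.5-fold. Points run from -0.38 to 0.09, and the intervals of 2 bins lie wholly below 0, as do those of 14.3% of all bins.

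Over gene loci in place of single bins, 58 of the 63 protein-coding members had enough local contacts, and 0 passed the 1.5-fold rule in either direction. Over all protein-coding loci 11.6% passed as lower and 0.0634% as higher. The member loci lie in the 13 histone bins and most share their counts with others of the same bin. The 0 is therefore not 58 separate observations, and nothing is read from it beyond the count over bins. These loci are listed for description. Their median log2 ratio was -0.14, against -0.17 over all loci. Of 15 loci of the histone locus body and of histone mRNA processing, 1 passed as lower and 0 as higher, with a median of -0.17. The list first held 16 loci with a median of -0.20, and Ern1, which encodes a sensor of unfolded proteins, was left out with its values known. Npat, the organiser of the histone locus body, had 718 local contacts in the GW4064 library and 435 in the vehicle library (0.21, 0.04 to 0.39). Ints11, a nuclease of the Integrator complex, had 124 and 154 (-0.82, -1.17 to -0.47). Of 21 S-phase genes 3 passed as lower, and values ran from Cdt1, a licensing factor (-0.77), to Mcm4, a helicase subunit (0.08). Of 14 replication-independent histone genes 3 passed as lower, and values ran from H2ax (-0.78), the variant phosphorylated at DNA breaks, to H2az1 (-0.10). The list includes H4f16, which encodes an ordinary H4 outside the clusters. With the chromosome 13 histone bins, the bins of these 15 loci had 5 contacts in trans in the GW4064 library, 1 each at Casp8ap2, Slbp, Cpsf2, Cstf2 and Yy1, against 1.04 expected, and 0 in the vehicle library against 1.08. The S-phase genes had 1 in the GW4064 library and 4 in the vehicle library, against 1.40 and 1.41 expected. Of the 6 liver genes beside the chromosome 13 clusters 0 passed in either direction, and their log2 ratios ran from -0.30 at Slc17a1, a phosphate and urate transporter, to -0.03 at Trim38.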

How the data were processed

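Per the labels' protocols, pulverised liver was processed with the Arima-HiC+ kit and a Foxa2 antiserum. Per the submitters' processing notes, HiC-Pro and Bowtie2 2.2.9 were used on mm10; the treatment of multiply mapped reads is not stated there. The authors deposited raw contact counts per pair of 50 kb bins, with a table of bin positions. From these, Python 3.11.15 with numpy 2.4.6, pandas 2.3.3 and scipy 1.17.1 gave sums, ratios and expectations. Genes came from RefSeq (GRCm38.p6). Expected cis counts were means over bin pairs at the same distance whose bins fell within 4 coverage classes, each 5% wide, either side, and expected trans counts did the same by trans coverage. Expectations from gene-dense bins or from bins of positive eigenvector alone took a wider range, 8 classes either side. Bins needed 100 contacts for an expectation, and ratios needed 200 contacts over both libraries. Intervals were exact Poisson for counts over expected and exact conditional binomial for ratios. The code was tested on simulated data. The members, lists and tests were chosen with earlier results of these data known. All member genes were eligible to be named, with the genes sharing their bins and, of each list, the highest and lowest locus by log2 ratio.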

Additional observations from a re-analysis of the deposited data

How the results depend on the processing

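No paired analysis was possible because each group had 1 library. Contacts between all parts of chromosome 13 stayed above expectation in every alternative run. By distance alone they were 3.72-fold in the GW4064 library. Capped at the 99th percentile they were 2.49-fold in the GW4064 library and 2.25-fold in the vehicle library. With parts split only at gaps over 500 kb, which joins parts 1 and 2 and parts 3 and 4, they were 13.4-fold and 11.4-fold. Within parts, distance alone gave 1.07-fold in the GW4064 library. Chosen after seeing the data, leaving out part 4 gave 8.65-fold and 7.88-fold, and gene-dense bins with the wider range of coverage gave 3.82-fold in the GW4064 library. In trans, the clusters with 5 bins on each side were 21.6-fold over expected in the GW4064 library, 17.3-fold in the vehicle library and 19.4-fold in both together. Against gene-dense bins alone with the wider range of coverage, chosen after seeing the data, the values were 23.04-fold, 22.6-fold and 22.9-fold. For the flanks without histone bins, also chosen after seeing the data, they were 15.8-fold, 12.1-fold and 13.9-fold. The log2 ratio of local contacts, -0.19, was -0.039 for same-bin contacts, -0.021 for trans contacts, -0.032 scaled to total contacts and 0.16 relative to bins of like gene density, where the sign turned. The cause was not tested. Of the other alternatives for these results, 52 stayed within the interval or count of the reported value. Depth limits the trans values, which rest on 11 contacts in the GW4064 library and 9 in the vehicle library.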
